A study of Mus musculus with 13 samples.

Results

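The genes described here are the amino acid response genes that the transcription factor ATF4 controls, together with the cytosolic aminoacyl-tRNA synthetases, in mouse microglia. They were taken by symbol from a deposited table of 19737 genes. Of 40 listed genes, 39 were in the table, and 35 passed a filter of a mean of at least 1 FPKM, a level scaled to transcript length and library size, over the 13 libraries. Trib3, Chac1, Asns and Gdf15 were in the table but below that filter. Mars, the methionyl-tRNA synthetase, was not listed under that symbol. Its current symbol, Mars1, was in the table with mean levels from 7.67 to 9.39 FPKM in the 4 groups and passed no test, and it was not counted among the 39.

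Microglia, the resident macrophages of the brain, were profiled by ribosomal RNA-depleted total RNA sequencing in 4 groups. The wild type group (n = 3) was WT mice given the vector AAV PHP.eB-EGFP, an adeno-associated virus carrying a fluorescent protein, and the 5xFAD EGFP group (n = 2) was 5xFAD mice, a transgenic Alzheimer's disease model, given the same vector. The circRNA group (n = 4) was 5xFAD mice given AAV PHP.eB carrying circPOLR2A, a circular RNA, and the PKR knockout group (n = 4) was 5xFAD; PKR KO mice, which lack the double-stranded RNA-activated kinase PKR. Within the circRNA group the labelled constructs are not the same, while the series' design text gives 1 construct for it, so a difference in construct between these libraries cannot be told apart from replicate spread. No vector is named for the PKR knockout mice, so the absence of a vector cannot be told apart from the knockout. The labels give no ages, do not name the promoter behind the transgenes or vectors, and do not say that replicates came from separate animals. P-values here therefore measure the spread between these libraries, which may be technical. The design asks how this response differs between 5xFAD and wild type microglia and whether the circular RNA or loss of PKR alters it.

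ATF4 is translated when eIF2 alpha, a subunit of a translation initiation factor, is phosphorylated by one of the kinases PKR, PERK, GCN2 or HRI, which sense double-stranded RNA, misfolded protein, uncharged tRNA and other stresses. It then binds short elements near genes for amino acid synthesis, amino acid uptake and tRNA charging, and near regulators such as CHOP and TRIB3 that close or redirect the response. Aminoacyl-tRNA synthetases load amino acids onto tRNAs for translation. Several of the cytosolic ones sit together in a multi-synthetase complex. Because ATF4 is controlled by translation, its mRNA level is not a measure of its activity.

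Depth, recovered from the steps in the FPKM values, was 45.2 to 69.9 M fragments for each library. It was 57.6 to 69.9 M in PKR knockout and 45.2 to 54.8 M in the other groups, without overlap. Summed levels of 8 microglial markers were 2809 to 5322 FPKM and those of 8 neuronal markers 10.3 to 40.4 FPKM. Wild type replicate 3 stood apart on the second principal component (17.2, against -18.2 and -22.1 in the other wild type libraries), with a summed level of 7 oligodendrocyte markers of 1610 FPKM against 401 and 362. Eif2ak2, the gene for PKR, was at 3.35, 4.61, 3.31 and 4.16 FPKM in the PKR knockout libraries, at 6.49 and 6.59 FPKM in 5xFAD EGFP, at 7.37, 7.48, 7.73 and 8.11 FPKM with circRNA, and at 5.18, 5.23 and 4.14 FPKM in wild type. The knockout libraries were thus below the other 5xFAD libraries and overlapped wild type, and FPKM over the whole gene does not show whether the deleted part was covered. The labels give library names in the PKR knockout group alone, and a batch of library preparation therefore cannot be told apart from the genotype. In bulk samples, fewer cells of a type and less RNA per cell cannot be told apart.

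The promoters of Asns, Gars, Tars, Psat1, Sars and Eprs are shown to place the genes that changed beside the element known from the Asns promoter. Each window runs from 250 bases before to 50 bases after the transcription start, 5′ to 3′ on the gene's strand, from RefSeq on GRCm38.p6. Capitals mark matches to TGATGNAA, the composite C/EBP-ATF element that ATF4 dimers bind, read on either strand. A match on the opposite strand appears as its reverse complement. The Asns window is chr6:7693160-7693459 on the minus strand, the Gars window chr6:55037751-55038050 on the plus strand, the Tars window chr15:11399609-11399908 on the minus strand, the Psat1 window chr19:15925010-15925309 on the minus strand, the Sars window chr3:108445210-108445509 on the minus strand and the Eprs window chr1:185362794-185363093 on the plus strand.
Asns: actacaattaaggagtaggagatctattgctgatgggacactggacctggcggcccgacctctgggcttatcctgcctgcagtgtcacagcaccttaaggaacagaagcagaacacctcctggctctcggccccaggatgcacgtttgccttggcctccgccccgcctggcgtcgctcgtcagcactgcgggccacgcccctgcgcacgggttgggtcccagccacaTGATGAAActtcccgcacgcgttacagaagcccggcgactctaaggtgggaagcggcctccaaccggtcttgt
Gars: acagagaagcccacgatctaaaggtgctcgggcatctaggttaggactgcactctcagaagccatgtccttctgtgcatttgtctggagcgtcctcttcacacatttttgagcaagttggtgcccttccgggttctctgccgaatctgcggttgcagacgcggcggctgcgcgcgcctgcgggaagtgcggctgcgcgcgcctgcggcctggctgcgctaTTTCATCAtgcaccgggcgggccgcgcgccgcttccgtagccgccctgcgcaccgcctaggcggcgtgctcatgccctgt
Tars: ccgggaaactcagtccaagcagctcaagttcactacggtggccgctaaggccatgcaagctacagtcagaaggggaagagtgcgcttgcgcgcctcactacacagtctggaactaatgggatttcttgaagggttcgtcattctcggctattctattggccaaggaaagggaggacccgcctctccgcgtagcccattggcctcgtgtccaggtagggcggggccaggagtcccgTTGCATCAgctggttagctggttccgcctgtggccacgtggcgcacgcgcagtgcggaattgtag
Psat1: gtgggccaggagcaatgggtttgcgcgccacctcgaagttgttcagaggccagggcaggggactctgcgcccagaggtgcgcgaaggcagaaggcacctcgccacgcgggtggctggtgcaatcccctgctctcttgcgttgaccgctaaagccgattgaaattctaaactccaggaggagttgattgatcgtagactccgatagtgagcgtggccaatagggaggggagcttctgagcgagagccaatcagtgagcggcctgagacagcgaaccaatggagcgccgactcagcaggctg
Sars: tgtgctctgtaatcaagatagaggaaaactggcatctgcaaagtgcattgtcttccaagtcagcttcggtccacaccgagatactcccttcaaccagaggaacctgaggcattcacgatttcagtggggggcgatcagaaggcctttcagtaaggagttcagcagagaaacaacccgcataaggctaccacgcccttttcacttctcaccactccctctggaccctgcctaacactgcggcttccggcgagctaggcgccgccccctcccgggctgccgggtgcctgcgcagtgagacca
Eprs: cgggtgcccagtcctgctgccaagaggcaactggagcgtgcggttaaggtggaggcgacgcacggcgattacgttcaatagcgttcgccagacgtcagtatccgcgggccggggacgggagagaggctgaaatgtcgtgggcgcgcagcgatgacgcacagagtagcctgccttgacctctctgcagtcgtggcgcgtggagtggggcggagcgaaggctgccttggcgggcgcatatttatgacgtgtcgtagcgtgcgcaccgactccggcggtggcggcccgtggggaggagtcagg

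The element was present in the windows of 11 of the 31 listed genes with a promoter entry (35.5%), against 3.48% of the 15233 genes of the table with a promoter entry and 1304 of 32851 windows of all genes (3.97%). The listed genes include known ATF4 targets, so this share is a description of the list. The 11 genes were Trib3, Chac1, Asns, Slc7a11, Nupr1, Vldlr, Aars, Gars, Iars, Tars and Yars. The Psat1, Sars and Eprs windows, printed above, held no match, nor did those of Qars, Dars, Mthfd2, Psph, Kars, Ddit3 or Atf4. No match says only that these letters were not in this window. Of the tested genes with a match, 4 of 8 passed the test as higher with circRNA than in wild type, and of those with a promoter entry and no match, 8 of 19 did, beside 17.8% of all genes. As higher in 5xFAD EGFP, 0 of 8 and 3 of 19 passed, and in PKR knockout 0 of 8 and 6 of 19, beside 7.65% and 17.5% of all genes.

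Across the 6 comparisons, the genes that changed against wild type in more than 1 of the 5xFAD groups were the serine enzyme gene Psat1, the synthetase genes Sars, Eprs, Qars and Rars, the CHOP gene Ddit3 and the transporter gene Slc7a5. In addition, 6 more synthetase genes, Mthfd2 and Nupr1 passed with circRNA, and Atf4, Hars, Vldlr and Psph in PKR knockout. In 5xFAD EGFP against wild type, 4 of 35 genes passed limma's test at an adjusted p (Benjamini-Hochberg) of 0.05, 3 higher and 1 lower. That share, 11.4%, stood beside 14.0% of all 10817 genes tested, 7.65% higher and 6.35% lower. With circRNA against wild type, 14 of 35 (40.0%) passed, all of them higher, beside 25.8% of all genes in either direction, 17.8% higher and 8.05% lower. In PKR knockout against wild type, 11 of 35 (31.4%) passed, 8 higher and 3 lower, beside 37.0% of all genes, 17.5% higher and 19.4% lower. The median log2 change of the tested genes was 0.09, 0.26 and 0.10 in these comparisons, beside -0.03, 0.02 and -0.05 over all genes. These comparisons share the wild type libraries.

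Among the 5xFAD groups the differences were few. No gene of the list passed for circRNA against 5xFAD EGFP, where limma called 0% of all genes, and 2 of the 35 had an unadjusted p under 0.05, beside 4.83% of all genes. None passed for PKR knockout against 5xFAD EGFP, beside 0.0832% of all genes, and 3 of the 35 had an unadjusted p under 0.05, beside 13.0% of all genes. For circRNA against PKR knockout, Dars and Mthfd2 passed, both higher with circRNA. They were 5.71% of the 35, beside 6.19% of all genes, 4.28% higher and 1.91% lower.

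**Figure D1:**
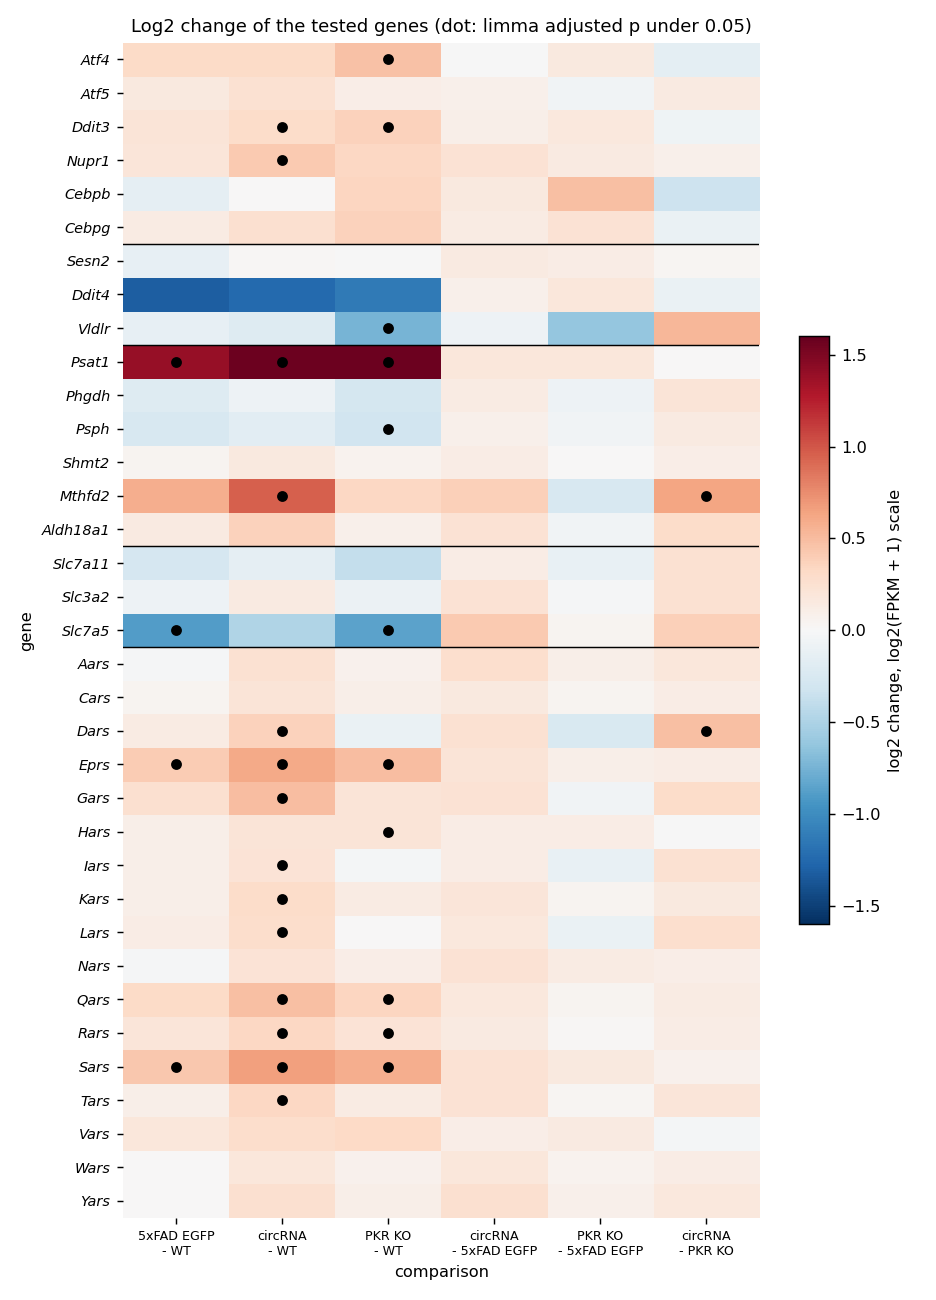
Log2 change on the log2(FPKM + 1) scale (colour) of each of the 35 tested genes (rows, in groups by role) in 6 comparisons (columns), with a dot where limma's adjusted p was under 0.05. The dots lie in the columns against wild type, except for 2 in the column of circRNA against PKR knockout, and the Psat1 row is red in each column against wild type, at log2 changes of 1.39, 1.57 and 1.56.

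The regulators are the transcription factors and the pseudokinase through which the response acts. Atf4 itself (chr15:80255184-80257541, plus strand) was at 20.6, 19.7 and 17.03 FPKM in wild type, 24.3 and 23.5 FPKM in 5xFAD EGFP, 22.8, 23.4, 28.01 and 21.3 FPKM with circRNA, and 30.4, 27.9, 27.0 and 22.0 FPKM in PKR knockout. Each 5xFAD library of any group lay above the highest wild type library. The log2 change of Atf4 against wild type passed for PKR knockout (0.46, SE 0.12, limma adjusted p = 0.00944) and not for 5xFAD EGFP (0.31, adjusted p = 0.183) or circRNA (0.30, adjusted p = 0.0792). When each library was rescaled to the same sum of FPKM, the PKR knockout change of Atf4 was 0.24 (limma adjusted p = 0.0603, range over 19 alternatives 0.00147 to 0.0603). Without PKR knockout replicate 4, the lowest of that group, the circRNA change of Atf4 passed (limma adjusted p = 0.0491), as it did with a replicate block (adjusted p = 0.0330, range over 19 alternatives 0.0330 to 0.841).

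Ddit3 encodes CHOP, a transcription factor of the later stress response. Its levels were 6.17, 5.30 and 5.52 FPKM in wild type, 6.69 and 6.59 FPKM in 5xFAD EGFP, 6.43, 7.1997, 8.76 and 6.51 FPKM with circRNA, and 7.46, 7.48, 8.56 and 6.93 FPKM in PKR knockout. The wild type libraries were the lowest 3 of the 13. The log2 change of Ddit3 was 0.37 (SE 0.10, limma adjusted p = 0.0120) in PKR knockout and 0.30 (SE 0.10, adjusted p = 0.0423) with circRNA. The circRNA call on Ddit3 was kept in 5 of the 13 leave-one-out fits, those without wild type replicate 1, circRNA replicates 1 or 4, or PKR knockout replicates 3 or 4 (limma adjusted p over all 19 alternatives 0.0226 to 0.644), and was lost with no filter, with only those groups fitted and when rescaled to the same sum. The last scaling also ended the PKR knockout call on Ddit3 (limma adjusted p = 0.0895, range over 19 alternatives 0.00161 to 0.0895). The annotated end of Ddit3 (chr10:127290774-127296288, plus strand) overlaps that of Mars1 on the opposite strand, and how counting used the strand is not given in the sources used here.

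Of the other tested regulators, Nupr1, a small chromatin-associated stress protein, had a mean of 2.28 ± 0.280 FPKM (SD, n = 3) in wild type. Its mean with circRNA was 3.45 ± 0.927 FPKM (SD, n = 4), higher by 0.42 on the log2 scale (limma adjusted p = 0.0367). The call on Nupr1 was lost without any 1 of the wild type libraries and without circRNA replicates 2 or 3 (limma adjusted p over 19 alternatives 0.0187 to 0.149). It was also lost with no filter, when rescaled to the same sum, with only those groups fitted and with a replicate block. Atf5, a factor related to ATF4, and Cebpb and Cebpg, which encode dimerization partners of ATF4, passed in none of the 6 comparisons. Under median-ratio scaling, Cebpg and Nupr1 rose in PKR knockout against wild type. Cebpb was at 30.1 to 41.2 FPKM in PKR knockout and 22.3 to 26.8 FPKM in 5xFAD EGFP, and the difference did not pass. Beside these levels stands a list of 9 immediate-early and heat shock genes that respond to cell handling. Its summed level was 1117 to 1453 FPKM in PKR knockout and 1006 to 1033 FPKM in 5xFAD EGFP, against 637 to 931 FPKM with circRNA and 582 to 981 FPKM in wild type. In PKR knockout against wild type, 7 of these 9 genes rose and 2, Hspa1a and Hspa1b, fell, beside 17.5% and 19.4% of all genes. In 5xFAD EGFP 3 rose (Dusp1, Ier2 and Egr1) and with circRNA 1 (Ier2), beside 7.65% and 17.8% of all genes. The 3 calls in 5xFAD EGFP were lost without either 5xFAD EGFP library, and Ier2 with circRNA was kept in 3 of 13 leave-one-out fits, those without wild type replicate 1, circRNA replicate 4 or PKR knockout replicate 3, and lost when rescaled to the same sum. Of the 9, 7 were lower with circRNA than in PKR knockout, beside 1.91% of all genes. Their part in the levels of Atf4, Ddit3 and Cebpb was not tested.

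Trib3, Chac1 and Asns, genes often read as a sign of ATF4 activity, were at or below 0.927 FPKM in each library. Trib3, a pseudokinase that restrains the response, was at 0.159, 0.168 and 0.466 FPKM in wild type, 0.440 and 0.257 FPKM in 5xFAD EGFP, 0.320, 0.490, 0.927 and 0.501 FPKM with circRNA, and 0.342, 0.450, 0.268 and 0.161 FPKM in PKR knockout. Chac1, which degrades glutathione, was at 0.0905, 0.103 and 0.121 FPKM in wild type, 0.183 and 0.189 FPKM in 5xFAD EGFP, 0.208, 0.0578, 0.284 and 0.108 FPKM with circRNA, and 0.0847, 0.0436, 0.0890 and 0.0996 FPKM in PKR knockout. Asns, asparagine synthetase, was at 0.472, 0.215 and 0.522 FPKM in wild type, 0.342 and 0.366 FPKM in 5xFAD EGFP, 0.313, 0.201, 0.720 and 0.534 FPKM with circRNA, and 0.317, 0.272, 0.149 and 0.250 FPKM in PKR knockout. Trib3 overlapped between each pair of groups, the PKR knockout libraries of Asns and Chac1 lay below those of 5xFAD EGFP, and circRNA replicate 3 was the highest library for all of Trib3, Chac1 and Asns. None of the 3 passed in any comparison when the filter was dropped. The lowest library held about 5 fragments of Chac1, 16 of Trib3 and 28 of Asns. The log2(FPKM + 1) scale also understates changes of genes below 1 FPKM. Whether depth or this scale limits the detection of changes in these genes was not tested. The windows of all 3 promoters hold the element shown above for Asns.

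Gdf15, a secreted stress cytokine, was the exception among the members below the filter, and is singled out after its values were seen. It was at 0.560, 0.351 and 0.342 FPKM in wild type, 0.727 and 0.875 FPKM in 5xFAD EGFP, 0.876, 0.429, 0.908 and 0.490 FPKM with circRNA, and 1.45, 1.54, 1.41 and 1.73 FPKM in PKR knockout. The PKR knockout libraries were the highest 4 of the 13, and no other group reached them. With the filter dropped, the log2 change of Gdf15 in PKR knockout was 0.84 against wild type (SE 0.11, limma adjusted p = 0.000336) and the circRNA libraries were lower than PKR knockout by -0.61 on the log2 scale (SE 0.10, adjusted p = 0.0173). Against 5xFAD EGFP the change was 0.49 (adjusted p = 0.217). Sesn2, a stress protein that restrains mTORC1, and Ddit4, an mTORC1 inhibitor, passed in no comparison. Ddit4 was at 26.96 FPKM in wild type replicate 1 and between 1.90 and 9.69 FPKM in the other 12 libraries.

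Among the tested genes of the list, serine and one-carbon synthesis held the largest change on the log2(FPKM + 1) scale. PHGDH, PSAT1 and PSPH are the successive enzymes that make serine from a glycolytic intermediate, and SHMT2 and MTHFD2 pass its carbon to folate in mitochondria. Psat1 (chr19:15904678-15947337, minus strand) was at 5.66, 5.34 and 12.3 FPKM in wild type, 21.7 and 19.5 FPKM in 5xFAD EGFP, 25.7, 21.8, 24.7 and 21.8 FPKM with circRNA, and 23.5, 24.2, 21.5 and 24.4 FPKM in PKR knockout. The 10 libraries of 5xFAD background lay together at or above 19.5 FPKM, and wild type replicate 3 lay between them and the other wild type libraries. The log2 change of Psat1 against wild type was 1.39 (SE 0.24, limma adjusted p = 0.00250) in 5xFAD EGFP, 1.57 (SE 0.20, adjusted p = 0.000123) with circRNA and 1.56 (SE 0.20, adjusted p = 9.78e-05) in PKR knockout. These calls were kept in all 13 leave-one-out fits, each without 1 library. The call in 5xFAD EGFP was lost when only its 5 libraries were fitted (limma adjusted p = 0.0717, range over 19 alternatives 7.23e-07 to 0.0717). Between 5xFAD groups the intervals of the Psat1 difference were -0.31 to 0.67 for circRNA and -0.32 to 0.67 for PKR knockout, each against 5xFAD EGFP (95% confidence, log2 scale).

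The neighbouring enzymes did not rise with Psat1. Phgdh, named after its values were seen, was at 19.3 to 23.3 FPKM in wild type, 16.4 to 19.3 FPKM in 5xFAD EGFP, 16.7 to 29.2 FPKM with circRNA and 15.4 to 18.2 FPKM in PKR knockout, and passed in no comparison. The ratio of Psat1 to Phgdh FPKM was 0.294, 0.270 and 0.526 in wild type, 1.13 and 1.19 in 5xFAD EGFP, 1.52, 1.23, 0.847 and 1.30 with circRNA, and 1.36, 1.33, 1.30 and 1.58 in PKR knockout. Both levels come from the same library, so a ratio does not move with the scaling of a library. Psph was at 1.31, 1.18 and 1.77 FPKM in wild type, 1.21 and 0.850 FPKM in 5xFAD EGFP, 1.03, 1.01, 1.42 and 1.15 FPKM with circRNA, and 0.997, 0.875, 0.977 and 0.949 FPKM in PKR knockout. Psph was lower in the knockout libraries than in each wild type library, with a difference of -0.31 on the log2 scale (SE 0.10, limma adjusted p = 0.0310). That call on Psph was lost without wild type replicate 3 or any 1 of the PKR knockout libraries (limma adjusted p over 19 alternatives 0.00188 to 0.125).

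Mthfd2 (chr6:83305691-83325908, minus strand) was at 0.953, 1.31 and 0.980 FPKM in wild type, 2.25 and 1.97 FPKM in 5xFAD EGFP, 2.62, 2.37, 4.90 and 2.69 FPKM with circRNA, and 1.34, 1.98, 1.46 and 1.68 FPKM in PKR knockout. The wild type libraries were the lowest, the circRNA libraries the highest, and circRNA replicate 3 stood above the rest of its group. Mthfd2 rose with circRNA against wild type by 0.96 on the log2 scale (SE 0.17, limma adjusted p = 0.00113), a call kept in each of 19 alternatives. It was 0.58 in 5xFAD EGFP (adjusted p = 0.0741) and 0.33 in PKR knockout (adjusted p = 0.141) against wild type. Both passed without circRNA replicate 3 (limma adjusted p = 0.00635 and 0.0199, range over 19 alternatives 0.00635 to 0.299 and 0.0199 to 0.291). The 5xFAD EGFP change of Mthfd2 also passed with a pseudocount of 0.1 and under median-ratio scaling. Shmt2, named after its values were seen, was at 3.43 to 4.74 FPKM in wild type and 3.88 to 6.11 FPKM in the 5xFAD libraries and passed in no comparison. The ratio of Mthfd2 to Shmt2 FPKM was 0.234, 0.277 and 0.286 in wild type, 0.541 and 0.463 in 5xFAD EGFP, 0.612, 0.527, 0.802 and 0.695 with circRNA, and 0.325, 0.425, 0.368 and 0.395 in PKR knockout. Groups did not overlap in this ratio except 5xFAD EGFP with circRNA. Aldh18a1, a proline synthesis enzyme, passed in no comparison and was at 2.46 to 5.70 FPKM over the 13 libraries.

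**Figure D2:**
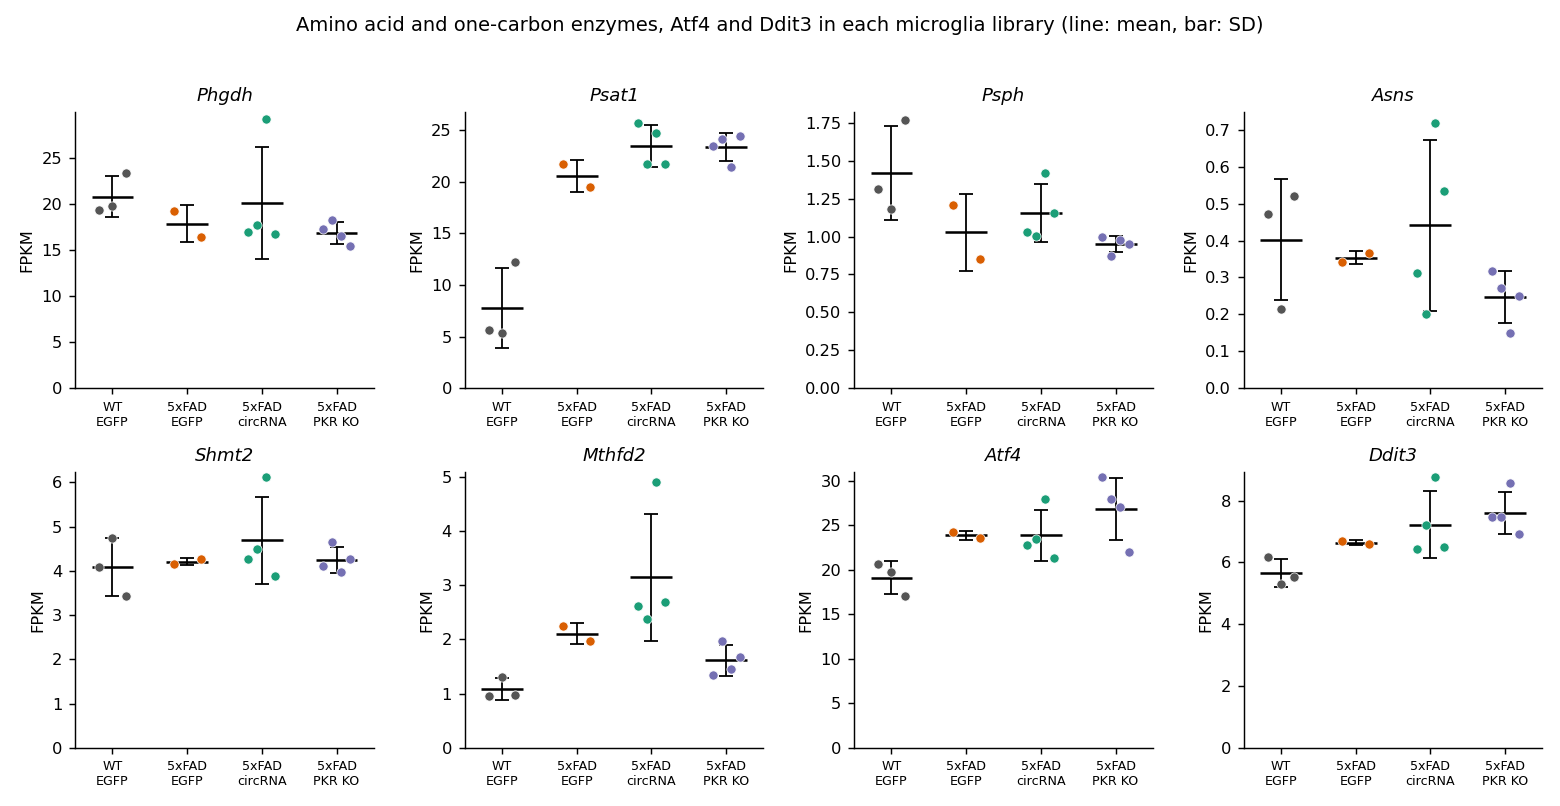
FPKM of 6 enzyme genes and of Atf4 and Ddit3 in each library (points), by group, with the mean (line) and SD (bar). Psat1 lies at or above 19.5 FPKM in the 10 libraries of 5xFAD background and at 5.34 to 12.3 FPKM in wild type, while Phgdh overlaps across the groups.

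The transporters bring in amino acids. SLC7A5 and SLC3A2 form a heterodimer that carries large neutral amino acids, and SLC7A11 pairs with SLC3A2 to take up cystine. Slc7a5 (chr8:121881150-121907694, minus strand) was at 17.7, 13.5 and 22.2 FPKM in wild type, 9.44 and 8.40 FPKM in 5xFAD EGFP, 9.49, 9.88, 18.8 and 12.8 FPKM with circRNA, and 9.61, 9.41, 8.93 and 8.88 FPKM in PKR knockout. It fell by 0.90 on the log2 scale in 5xFAD EGFP (SE 0.24, limma adjusted p = 0.0248) and by 0.86 in PKR knockout (SE 0.20, adjusted p = 0.00572) against wild type, with no overlap. With circRNA the log2 change was -0.48 (adjusted p = 0.102), and circRNA replicate 3 lay among the wild type libraries. Without it, the circRNA change of Slc7a5 was -0.67 and passed (limma adjusted p = 0.00940), as it did without wild type replicate 2 (adjusted p = 0.0419). It also passed under median-ratio scaling (-0.54, limma adjusted p = 0.0438) and the same-sum scaling (-0.75, adjusted p = 0.00518, range over 19 alternatives 0.00518 to 0.305). The 5xFAD EGFP call on Slc7a5 was lost without wild type replicates 1 or 3 or either 5xFAD EGFP library (limma adjusted p over 19 alternatives 0.00421 to 0.185). Slc3a2, at 33.5 to 58.4 FPKM, and Slc7a11, at 0.759 to 2.58 FPKM, passed in no comparison.

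SLC7A5 is abundant in brain endothelial cells, so its levels are set beside endothelial markers, a pairing chosen with the values known. The summed level of 6 endothelial markers was 51.7 to 122 FPKM in wild type, 23.9 to 33.8 FPKM in 5xFAD EGFP, 31.8 to 67.0 FPKM with circRNA and 34.3 to 47.4 FPKM in PKR knockout, with no marker at 0. Of these 6 markers 5 fell in 5xFAD EGFP, 3 with circRNA and 5 in PKR knockout against wild type, where 6.35%, 8.05% and 19.4% of all genes fell. The 5 calls in 5xFAD EGFP were lost without 5xFAD EGFP replicate 2, and 2 of the 3 with circRNA, Cdh5 and Tek, without wild type replicates 1 or 3. Markers of other cells fell too. Of 4 tested mural cell markers 4 fell in 5xFAD EGFP, 3 with circRNA and 4 in PKR knockout, and 4 of 4 tested markers of border macrophages fell in each of these comparisons. The circRNA library with the highest endothelial sum, replicate 3, was also that with the highest Slc7a5. The part of endothelial cells, mural cells or border macrophages in the Slc7a5 levels was not tested.

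Vldlr, a lipoprotein receptor gene induced by ATF4, was at 1.604, 1.09 and 2.11 FPKM in wild type, 1.404 and 1.29 FPKM in 5xFAD EGFP, 1.71, 0.511, 0.877 and 2.16 FPKM with circRNA, and 0.578, 0.376, 0.620 and 0.568 FPKM in PKR knockout. The knockout libraries lay below each wild type and each 5xFAD EGFP library, while the circRNA libraries spanned both. Vldlr fell by 0.75 on the log2 scale in PKR knockout against wild type (SE 0.21, limma adjusted p = 0.0175). That call was lost without wild type replicates 1 or 3 (limma adjusted p over 19 alternatives 0.00470 to 0.0625). Against 5xFAD EGFP the log2 change of Vldlr was -0.61 (adjusted p = 0.316), which passed when only those groups were fitted (limma adjusted p = 0.0106, range over 19 alternatives 0.0106 to 0.805). The summed level of 7 oligodendrocyte markers, a pairing chosen after the values were seen, was 231 to 387 FPKM in PKR knockout, 669 to 710 FPKM in 5xFAD EGFP, 362 to 1610 FPKM in wild type and 314 to 813 FPKM with circRNA. In the circRNA group, the libraries with the lower Vldlr levels, replicates 2 and 3, had sums of 314 and 323 FPKM, and the others 778 and 813 FPKM. Wild type replicates 1 and 2 had sums of 401 and 362 FPKM, near the 387 FPKM of PKR knockout replicate 4. Vldlr was at 1.604 and 1.09 FPKM in these wild type libraries and at 0.568 FPKM in that knockout library. The part of oligodendrocytes in the Vldlr levels was not tested.

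**Figure D3:**
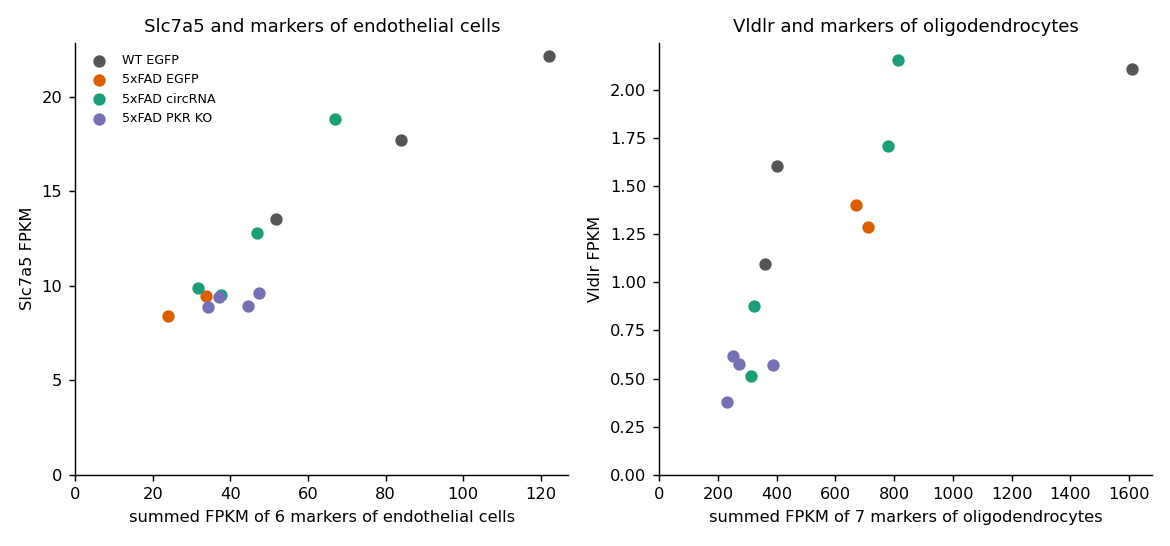
Level of Slc7a5 (left) and Vldlr (right) in FPKM in each library (points, coloured by group) against the summed FPKM of 6 endothelial or 7 oligodendrocyte markers. Slc7a5 is highest, at 13.5 to 22.2 FPKM, in the wild type libraries and in circRNA replicate 3, and Vldlr is at or below 0.620 FPKM in the PKR knockout libraries.

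The synthetases were expressed at a similar order of level, from a wild type mean of 3.10 FPKM for Tars (threonine) to 17.1 FPKM for Nars (asparagine). All 17 that the table holds were tested. Against wild type, 2 rose in 5xFAD EGFP, 10 with circRNA and 5 in PKR knockout, and none fell with the values as deposited. The shares of all genes that rose in these comparisons were 7.65%, 17.8% and 17.5%. The median synthetase lay 0.22, 0.32, 0.51 and 0.17 above the wild type mean on the log2 scale in the circRNA libraries, 0.14 and 0.08 in 5xFAD EGFP, and 0.16, 0.20, 0.06 and 0.13 in PKR knockout. The median of all genes ran from -0.07 to 0.11 over the 13 libraries. The number of the 17 synthetases above their wild type mean was 17 in each circRNA library, 17 and 11 in 5xFAD EGFP, and 14, 16, 13 and 15 in PKR knockout. Of all genes, 38.0% to 64.3% were above theirs in these libraries. In the wild type libraries themselves the number was 15, 11 and 1 of the 17, beside 74.3%, 43.1% and 34.7% of all genes.

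Sars, the seryl-tRNA synthetase gene (chr3:108424865-108445209, minus strand), was at 7.15, 7.03 and 6.93 FPKM in wild type, 10.3 and 9.33 FPKM in 5xFAD EGFP, 10.7, 11.8, 14.3 and 10.04 FPKM with circRNA, and 11.0, 11.1, 10.5 and 11.4 FPKM in PKR knockout. Each 5xFAD library was above each wild type library. The log2 change of Sars against wild type was 0.43 (SE 0.11, limma adjusted p = 0.0264) in 5xFAD EGFP, 0.65 (SE 0.09, adjusted p = 0.000343) with circRNA and 0.58 (SE 0.09, adjusted p = 0.000643) in PKR knockout. Eprs, the glutamyl-prolyl-tRNA synthetase gene (chr1:185363044-185428360, plus strand), was at 3.62, 3.45 and 3.14 FPKM in wild type, 4.86 and 4.76 FPKM in 5xFAD EGFP, 5.49, 5.54, 6.79 and 5.02 FPKM with circRNA, and 5.00, 5.24, 4.78 and 5.71 FPKM in PKR knockout. It separated the groups in the same way, with log2 changes of 0.40 (SE 0.10, limma adjusted p = 0.0214), 0.60 (adjusted p = 0.000287) and 0.49 (adjusted p = 0.00101). The 5xFAD EGFP call was lost without either 5xFAD EGFP library for both genes, without wild type replicates 1 or 2 for Sars, and with a replicate block for Eprs (limma adjusted p over 19 alternatives 0.00444 to 0.190 for Sars and 0.00417 to 0.129 for Eprs). The circRNA and PKR knockout calls on both genes were kept in all 19 alternatives.

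The complex holds synthetases for 8 listed genes, of which Eprs, Iars, Lars, Kars, Dars, Rars and Qars were tested. With circRNA, 7 of these 7 rose against wild type, 3 of 7 in PKR knockout and 1 of 7 in 5xFAD EGFP, beside 17.8%, 17.5% and 7.65% of all genes. Rescaled to the same sum, 2 of 7 rose with circRNA, 1 of 7 in 5xFAD EGFP, and 1 rose and 3 fell in PKR knockout, beside 9.20%, 6.55%, 10.9% and 50.1% of all genes. Qars (glutamine) was at 4.77, 4.23 and 3.98 FPKM in wild type, 5.39 and 5.80 FPKM in 5xFAD EGFP, 6.09, 6.72, 7.12 and 5.86 FPKM with circRNA, and 5.51, 6.13, 5.30 and 6.19 FPKM in PKR knockout. The wild type libraries of Qars lay below all others, with log2 changes of 0.31 (limma adjusted p = 0.0503), 0.48 (adjusted p = 0.000876) and 0.35 (adjusted p = 0.00540) in 5xFAD EGFP, circRNA and PKR knockout. Rars (arginine) was at 4.801, 4.69 and 3.84 FPKM in wild type, 5.17 and 5.24 FPKM in 5xFAD EGFP, 5.65, 6.15, 6.34 and 5.25 FPKM with circRNA, and 5.45, 5.31, 5.11 and 5.31 FPKM in PKR knockout. Its log2 change was 0.33 with circRNA (limma adjusted p = 0.00661) and 0.21 in PKR knockout (adjusted p = 0.0430), the latter kept in 4 of 13 leave-one-out fits, those without wild type replicates 1 or 2 or circRNA replicates 3 or 4 (limma adjusted p over 19 alternatives 0.00825 to 0.794). Rescaling to the same sum ended the PKR knockout call on Qars and the circRNA call on Rars (limma adjusted p = 0.0683 and 0.264, ranges over 19 alternatives 0.00138 to 0.0683 and 0.00428 to 0.264), and the latter was also lost with only those groups fitted. The PKR knockout call on Rars was lost in both of these settings and with a replicate block. Without circRNA replicate 3, Qars also passed in 5xFAD EGFP (limma adjusted p = 0.0400), as it did without wild type replicate 1 (adjusted p = 0.0381, range over 19 alternatives 0.0163 to 0.306). It passed there with a pseudocount of 0.1 and under median-ratio scaling too.

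Kars (lysine) was at 5.30, 5.29 and 5.31 FPKM in wild type, 6.50 and 5.02 FPKM in 5xFAD EGFP, 6.44, 6.96, 7.66 and 5.91 FPKM with circRNA, and 6.19, 6.08, 5.58 and 5.76 FPKM in PKR knockout. Lars (leucine) was at 5.89, 5.54 and 5.40 FPKM in wild type, 6.30 and 5.997 FPKM in 5xFAD EGFP, 6.69, 6.59, 8.31 and 6.56 FPKM with circRNA, and 5.73, 6.26, 4.90 and 5.80 FPKM in PKR knockout. In both, the circRNA libraries lay above wild type without overlap. The log2 change with circRNA was 0.29 for Kars (SE 0.09, limma adjusted p = 0.0280) and 0.28 for Lars (SE 0.09, adjusted p = 0.0364). Each call was kept in 8 of 13 leave-one-out fits, and both were lost without circRNA replicate 3 (limma adjusted p = 0.0672 for Kars and 0.0743 for Lars, range over 19 alternatives 0.0141 to 0.598 and 0.0278 to 0.768) and without wild type replicates 2 or 3. Kars was also lost without wild type replicate 1 or circRNA replicate 2, and Lars without circRNA replicate 1 or PKR knockout replicate 1. A replicate block also ended the call on Lars. Iars (isoleucine), with a log2 change of 0.21 with circRNA (limma adjusted p = 0.0480), held in 2 of 13 such fits, those without wild type replicate 1 or circRNA replicate 1. The Iars change turned to -0.051 when rescaled to the same sum, and its call was also lost under median-ratio scaling, with only those groups fitted and with a replicate block (limma adjusted p over 19 alternatives 0.0317 to 0.487).

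Outside the complex, Gars (glycine) was at 11.1, 11.1 and 9.87 FPKM in wild type, 13.9 and 12.1 FPKM in 5xFAD EGFP, 14.3, 14.8, 19.7 and 13.5 FPKM with circRNA, and 13.2, 13.7, 10.3 and 12.7 FPKM in PKR knockout. Tars was at 3.51, 3.04 and 2.75 FPKM in wild type, 3.42 and 3.31 FPKM in 5xFAD EGFP, 3.78, 4.10, 4.73 and 3.92 FPKM with circRNA, and 3.35, 3.53, 3.25 and 3.73 FPKM in PKR knockout. The circRNA libraries were above each wild type library for both genes, while PKR knockout overlapped wild type. The log2 change with circRNA was 0.49 for Gars (SE 0.13, limma adjusted p = 0.0134) and 0.33 for Tars (SE 0.08, adjusted p = 0.00970). Rescaled to the same sum, neither passed (0.22 and 0.10, limma adjusted p = 0.0840 and 0.191), and Tars did not pass with only those groups fitted (adjusted p = 0.0547), where the ranges over 19 alternatives were 0.00950 to 0.0840 for Gars and 0.00476 to 0.191 for Tars. Hars (histidine) rose in PKR knockout against wild type by 0.21 on the log2 scale (limma adjusted p = 0.0483), a call kept in 2 of 13 leave-one-out fits, those without wild type replicate 1 or circRNA replicate 3 (adjusted p over 19 alternatives 0.00953 to 0.914). That call was also lost with a replicate block. Aars, Cars, Nars, Vars, Wars and Yars, for alanine, cysteine, asparagine, valine, tryptophan and tyrosine, passed in none of the 6 comparisons, although Vars rose in PKR knockout against wild type under median-ratio scaling.

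How the libraries are scaled bears on these directions. The sum of FPKM was lower in each wild type library than in each 5xFAD library. Rescaling each library to the same sum moved the median log2 change of all genes to -0.17 in 5xFAD EGFP, -0.20 with circRNA and -0.24 in PKR knockout against wild type. The median synthetase change then was -0.04, 0.03 and -0.07, against 0.09, 0.29 and 0.13 as deposited, so the sign turned in 5xFAD EGFP and PKR knockout. Measured from the median of all genes, the synthetase median was 0.13, 0.23 and 0.17 under that scaling and 0.13, 0.26 and 0.18 as deposited. As deposited, 17, 17 and 16 of the 17 synthetases lay above the median of all genes in 5xFAD EGFP, circRNA and PKR knockout, and under the same-sum scaling 15, 17 and 15. Under the same-sum scaling 3 synthetases rose with circRNA and none fell, 2 rose and 3 fell in PKR knockout, and over the whole list 5 of 35 genes rose and 3 fell, against 14 and 0 as deposited. Of all genes 9.20% rose and 43.3% fell with circRNA under that scaling. In PKR knockout 3 of 35 rose and 10 fell, against 8 and 3, beside 10.9% and 50.1% of all genes. The calls lost under it were those on Gars, Iars, Lars, Kars, Dars, Rars, Tars, Ddit3 and Nupr1 with circRNA and on Atf4, Ddit3, Hars, Rars and Qars in PKR knockout. With only the groups compared in the fit, the calls on Iars, Lars, Kars, Rars, Tars, Ddit3 and Nupr1 with circRNA and on Hars and Rars in PKR knockout were lost, as were the 4 in 5xFAD EGFP.

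One library carried the highest values of the circRNA group. Replicate 3 was the highest of the 13 libraries for 24 of 35 genes, among them 16 of 17 synthetases, beside 29.4% of all genes. After median-ratio scaling it was the highest for 18 of 35 genes and 11 of 17 synthetases, beside 8.78% of all genes. Without it, 10 of the list passed with circRNA against wild type, 15 in PKR knockout against wild type and 6 in 5xFAD EGFP against wild type, beside 22.3%, 38.0% and 14.7% of all genes in that fit.

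**Figure D4:**
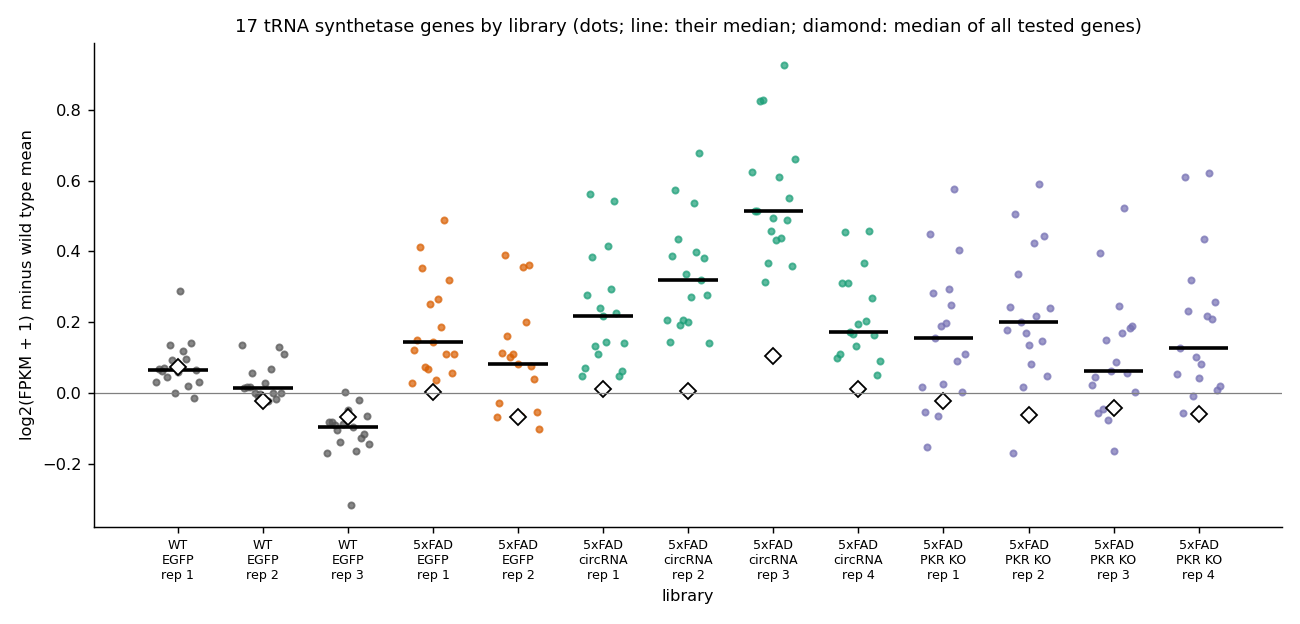
Level of each of 17 synthetases in each library (points), as log2(FPKM + 1) minus the wild type mean, with the median synthetase (line) and the median of all tested genes (diamond). The medians of the circRNA libraries lie at 0.17 to 0.51, those of PKR knockout at 0.06 to 0.20, and those of 5xFAD EGFP at 0.08 and 0.14.

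The direct comparison of the treated groups turned on Dars, the aspartyl-tRNA synthetase gene (chr1:128363707-128417368, minus strand). It was at 5.09, 4.90 and 4.51 FPKM in wild type, 5.46 and 5.31 FPKM in 5xFAD EGFP, 6.05, 6.62, 7.32 and 6.22 FPKM with circRNA, and 4.24, 4.18, 4.60 and 4.61 FPKM in PKR knockout. The circRNA libraries were above those of each other group, and the knockout libraries were below both other 5xFAD groups and overlapped wild type. The log2 difference between circRNA and PKR knockout was 0.48 (SE 0.06, limma adjusted p = 0.00307), kept in all 19 alternatives. Against 5xFAD EGFP, Dars was 0.24 higher with circRNA (95% interval 0.07 to 0.41, limma adjusted p = 0.739) and 0.24 lower in PKR knockout (interval -0.41 to -0.07, adjusted p = 0.237), and neither passed. Against wild type it rose with circRNA by 0.37 (limma adjusted p = 0.00180), a call lost when rescaled to the same sum (adjusted p = 0.0840, range over 19 alternatives 0.000976 to 0.0840). The ratio of Dars to the mean of the 6 other tested complex genes was 0.708, 0.667, 0.820 and 0.743 in PKR knockout and 0.882 to 0.977 in the other 9 libraries. The knockout libraries were thus the lowest 4 in that ratio, which does not move with library scaling. Dars was singled out by the test above, and the ratio uses the same Dars values, so it is not separate support.

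Mthfd2, whose values are given above, was higher with circRNA than in PKR knockout by a log2 difference of 0.63 (SE 0.15, limma adjusted p = 0.0345), without overlap. The call on Mthfd2 was kept in 6 of 13 leave-one-out fits. It was lost without either 5xFAD EGFP library, circRNA replicate 1 or any 1 of the PKR knockout libraries, with a replicate block (adjusted p = 0.0532) and with no filter on low values (adjusted p = 0.0666) (limma adjusted p over 19 alternatives 0.0268 to 0.0975). Against 5xFAD EGFP, Mthfd2 did not pass with circRNA (0.38, 95% interval -0.03 to 0.79, limma adjusted p = 0.739) or in PKR knockout (-0.25, interval -0.66 to 0.15, adjusted p = 0.568).

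**Figure D5:**
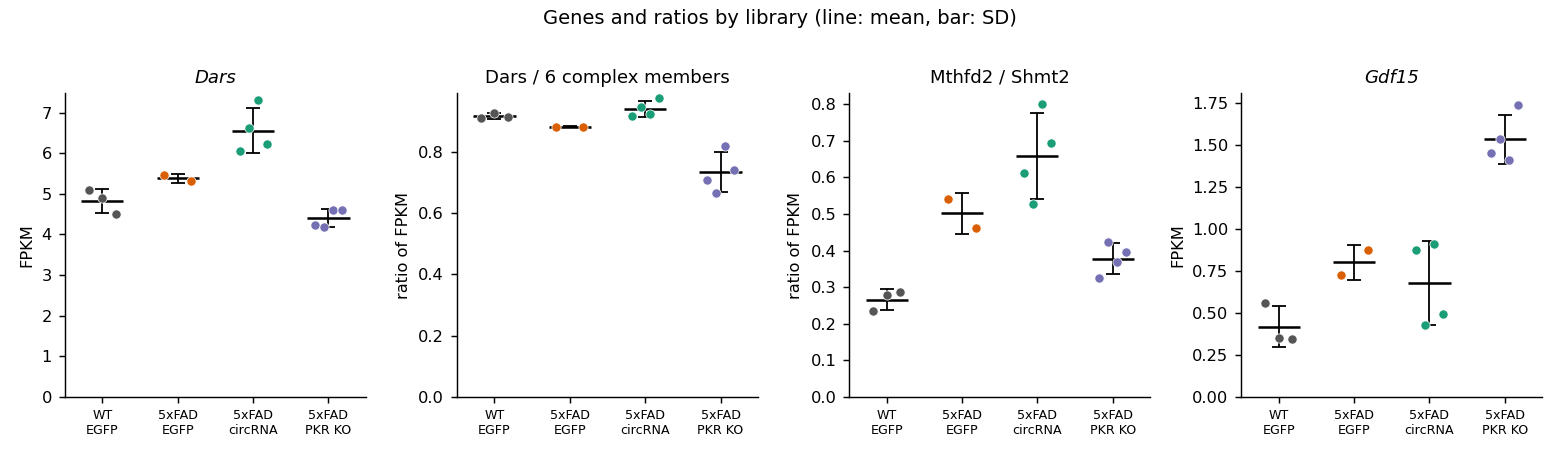
Levels and ratios in each library (points), by group, with the mean (line) and SD (bar), for Dars, Dars over the mean of 6 complex genes, Mthfd2 over Shmt2, and Gdf15. The ratio of Dars to the other complex genes is 0.667 to 0.820 in PKR knockout and at least 0.882 elsewhere.

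Genes around the module were taken from lists of the pathway. Of 14 genes for eIF2 subunits, their kinases, phosphatase subunits and exchange factor, 1 rose in 5xFAD EGFP, 4 rose with circRNA, and 2 rose and 2 fell in PKR knockout against wild type. The 4 of 14 called in each of the latter comparisons stood beside 25.8% and 37.0% of all genes, and the 1 of 14 in 5xFAD EGFP beside 14.0%. Rescaled to the same sum, 0 rose and 3 fell in 5xFAD EGFP, 2 rose and 5 fell with circRNA, and 1 rose and 5 fell in PKR knockout, where 27.7%, 43.3% and 50.1% of all genes fell. Ppp1r15a, the phosphatase subunit GADD34 that reverses eIF2 alpha phosphorylation, rose in PKR knockout from a mean of 10.2 to 24.97 FPKM, by 1.22 on the log2 scale (limma adjusted p = 3.42e-05), and was 1.01 lower on the log2 scale with circRNA than in PKR knockout (adjusted p = 0.00284). In the latter comparison 3 of 14 were called, beside 6.19% of all genes. Eif2ak2 (0.845) and Eif2s1 (0.298) were higher with circRNA, the Eif2s1 call being kept in 2 of 13 leave-one-out fits. The gene that rose in 5xFAD EGFP was Ppp1r15a (0.55), a call kept in 3 of 13 leave-one-out fits, those without wild type replicate 1, circRNA replicate 1 or PKR knockout replicate 3. Those with circRNA were Eif2ak2 (0.57) and the subunit genes Eif2s1 (0.31), Eif2s2 (0.34) and Eif2s3x (0.52). The calls on Eif2s1 and Eif2s2 were lost when libraries were rescaled to the same sum (0.09 and 0.11, limma adjusted p = 0.355 and 0.261), with only those groups fitted and without wild type replicate 3, and that on Eif2s2 also without circRNA replicate 1. In PKR knockout, the fall of Eif2ak2 was kept in 2 of 13 leave-one-out fits, those without wild type replicate 3 or PKR knockout replicate 2. It was also lost with no filter, under median-ratio scaling and with only those groups fitted.

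Of 14 further ATF4-linked genes, 11 were tested, and 1 rose in 5xFAD EGFP, 3 rose and 1 fell with circRNA, and 3 rose and 1 fell in PKR knockout against wild type. These shares, 9.09%, 36.4% and 36.4%, stood beside 14.0%, 25.8% and 37.0% of all genes. Rescaled to the same sum, Atf3 was the 1 of 11 that rose in each comparison, with Eif4ebp1 and Slc1a5 lost, and 1, 3 and 4 fell, beside 27.7%, 43.3% and 50.1% of all genes. Atf3, a stress-induced transcription factor, rose in each comparison, from a mean of 32.8 FPKM in wild type to 99.4, 74.1 and 147 FPKM in 5xFAD EGFP, circRNA and PKR knockout, log2 changes of 1.58, 1.16 and 2.15. It was 0.99 lower on the log2 scale with circRNA than in PKR knockout (limma adjusted p = 0.00794). Atf3 is also an immediate-early gene, and the summed handling genes given above were highest in PKR knockout. Their sums with circRNA, 637 to 931 FPKM, lay within the wild type range of 582 to 981 FPKM. The part of handling in the Atf3 levels was not tested.

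The mitochondrial synthetases, which charge tRNAs of that compartment, rose in no comparison with wild type. Of 17 listed, 14 were tested, and none passed in 5xFAD EGFP or with circRNA against wild type, beside 14.0% and 25.8% of all genes. In each, 1 of the 14 had an unadjusted p under 0.05, beside 26.2% and 36.7% of all genes. Rescaled to the same sum, 4 of 14 fell in 5xFAD EGFP, 9 with circRNA and 7 in PKR knockout, beside 27.7%, 43.3% and 50.1% of all genes. With the values as deposited, Rars2 and Lars2 were the 2 of 14 called in PKR knockout, beside 37.0% of all genes, and fell by 0.33 each on the log2 scale (limma adjusted p = 0.00371 and 0.0348), the Lars2 call being lost without wild type replicates 2 or 3 or PKR knockout replicates 1, 2 or 3. Both were higher with circRNA than in PKR knockout, calls kept in 5 of 13 leave-one-out fits for Rars2 and 8 of 13 for Lars2, and lost for both without circRNA replicates 1 or 3 or PKR knockout replicates 1, 2 or 3, and for Rars2 also without circRNA replicates 2 or 4 or PKR knockout replicate 4. No filter and a replicate block also ended these calls on both genes and the Lars2 call against wild type. Median-ratio scaling ended the Lars2 calls in both comparisons. The other stress branches, XBP1 and ATF6, were covered by 10 targets. Of these, Sdf2l1, an endoplasmic reticulum chaperone cofactor, rose in each 5xFAD group against wild type (1.25, 1.56 and 1.65 on the log2 scale). The first of these calls was lost without either 5xFAD EGFP library. Of the 10, 3 rose with circRNA and 5 in PKR knockout, and none fell, where 17.8% and 17.5% of all genes rose. With circRNA, Hsp90b1 and Pdia4 were lost when rescaled to the same sum, which left 1 of 10 higher, and Pdia4 was kept in 5 of 13 leave-one-out fits, being lost without wild type replicates 2 or 3, either 5xFAD EGFP library, circRNA replicates 2 or 3, or PKR knockout replicates 1 or 4. Rescaled to the same sum, 5 of 10 were higher and 1 lower in PKR knockout, beside 10.9% and 50.1% of all genes. The 1 of 10 higher with circRNA under that scaling stood beside 9.20%. Hspa5, the chaperone BiP, rose in PKR knockout from 57.7 to 134 FPKM, by 1.18 on the log2 scale (limma adjusted p = 0.00136).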

How the data were processed

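Ribosomal RNA-depleted, stranded total RNA libraries were sequenced from microglia, per the labels' protocols, and grouped by title. The authors deposited 1 table of FPKM values, not pooled, with 1 column for each library. Bowtie2 2.3.5, HISAT2 2.1.0, featureCounts 1.5.1 and build mm10 are named in the submitters' processing notes, which give no role or order. Because FPKM is divided by the library total, a change in abundant genes can shift all others.

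Depth was recovered from the size of 1 fragment, with union exon lengths from GENCODE M21 for 19396 genes (98.3%). From 91.2% to 92.9% of low values were whole fragments within 0.02, against 4% by chance. Column sums ran from 123352 to 170775.

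Testing covered the 10817 genes averaging 1 FPKM or more, on log2(FPKM + 1), in a single limma fit (version 3.58.1, R 4.3.3) with group means and a trended eBayes step, two-sided. Benjamini-Hochberg adjustment was applied to each of 6 comparisons separately, at a threshold of 0.05. Fold changes of genes near 1 FPKM are understated on this scale. The script was tested on simulated data.

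The genes and lists were chosen with earlier results of these data known. Values in every library are given for the 16 genes with the smallest adjusted p in any comparison and for Atf4, Ddit3, Trib3, Chac1 and Asns. Alternatives were a pseudocount of 0.1, no filter, 2 scalings, a fit of only the 2 groups compared, a block on replicate number, and leaving out each library. Promoters came from RefSeq tables of GRCm38.p6, for 31 of the 39 genes. Slc7a5, Cars, Hars, Lars, Nars, Rars, Vars and Wars were not matched. Gene positions are from GENCODE M21.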

Additional observations from a re-analysis of the deposited data

Results flagged for a closer look

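Levels of each of the 39 genes in the table, those below the filter included, were examined in the 2 groups of 4 libraries for a library standing apart by a gap test, which chance alone flags in about 1 in 20 groups. It marked 7 of 78 groups. In the circRNA group, replicate 3 was the high library for 5 genes. Its level was 29.22 FPKM for Phgdh, against 17.73 FPKM in the next library, 4.899 FPKM for Mthfd2 against 2.692, 5.852 FPKM for Cars against 4.304, 8.308 FPKM for Lars against 6.687, and 7.882 FPKM for Yars against 5.195. In the PKR knockout group, replicate 3 was high for Sesn2, at 2.634 FPKM against 1.971, and replicate 1 was high for Nars, at 19.42 FPKM against 17.94. The column sum of circRNA replicate 3 was the highest of the 13 libraries, and its summed endothelial markers (67.0 FPKM) the highest of its group. Their part in these levels was not tested.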

How the results depend on the processing

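With only the 2 groups compared in the fit, the number of the 35 genes past the threshold was 0 in 5xFAD EGFP against wild type (4 in the main fit of 13 libraries), 1 in PKR knockout against 5xFAD EGFP (0), and 7 with circRNA against wild type (14). Of all genes, 4.71%, 5.33% and 15.9% passed in these fits, against 14.0%, 0.0832% and 25.8%. Median-ratio scaling gave 5 higher and 1 lower in 5xFAD EGFP, 13 and 1 with circRNA and 11 and 3 in PKR knockout against wild type. Of all genes, 17.5%, 30.3% and 41.2% passed in either direction under that scaling. Rescaling to the same sum left 8 with circRNA against wild type, 5 of them higher, beside 52.5% of all genes in either direction. It turned the sign of Iars there to -0.051. Leaving out 1 library at a time gave 1 to 6 genes in 5xFAD EGFP, 10 to 14 with circRNA and 8 to 15 in PKR knockout against wild type, 1 to 3 for circRNA against PKR knockout, and 0 in both comparisons with 5xFAD EGFP. The share of all genes then ran from 5.23% to 18.5%, 20.1% to 26.5%, 28.7% to 38.0% and 1.36% to 12.4% in the first 4 of these comparisons. A fit with a replicate block gave 3, 13 and 11 genes against wild type, 1 for circRNA against PKR knockout (2 without it, the lost gene being Mthfd2) and 0 in the others, beside 12.1%, 24.8%, 35.8% and 4.14% of all genes. Against wild type the block lost Eprs in 5xFAD EGFP, Iars, Lars and Nupr1 with circRNA, and Hars and Rars in PKR knockout. It gained Atf4 and Ddit4 with circRNA and Cebpg and Ddit4 in PKR knockout. The labels do not say what a replicate number marks. Correlations of the deviations of same-numbered libraries were -0.42 to 0.69 for circRNA and wild type, -0.18 to 0.58 for PKR knockout and wild type, 0.04 to 0.55 for circRNA and PKR knockout, and 0.38 and 0.27 for PKR knockout and 5xFAD EGFP. No comparison with 3 or more pairs had every correlation above 0.1, so the numbers were not taken as pairs, although some pairs may share a source. Not every library correlated best with its own number. Of 186 values of the 31 calls under alternatives other than leaving out a library, 148 kept their call, 37 lost it and 1 reversed, and of 403 leave-one-out values 325 kept it. With 2 libraries, 5xFAD EGFP limits each comparison with it. Trib3, Chac1 and Asns have few fragments and lie below 1 FPKM, where the scale understates changes. Which of these limits their tests was not tested.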
